A study of Rattus norvegicus with 8 samples.

Results

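RNA levels of 8 genes of glucose use, gluconeogenesis and carbohydrate sensing were followed in rat liver: Pklr, Pck1, Fbp1, Ldha, Ldhb, Slc2a2, Mlxipl and Srebf1. Each gene was read from the probe set that the platform annotation lists under its symbol alone, taking the one with the highest mean over arrays. This gave values for 7 of the 8, out of 14511 genes in all. Srebf1, a transcription factor of the insulin response and of fatty acid synthesis, is listed only on a probe set shared with another gene and has no value here. All rats were female Wistar, an outbred laboratory strain. One group was the liver left 8 h after partial hepatectomy (PH), in which the lateral lobes are removed by surgery, and the others were unoperated livers at 2, 4 and 12 weeks of age. Each group had 2 Affymetrix Rat Gene 1.0 ST arrays, 8 in all. No label states how old the operated rats were, and sham-operated rats were not analysed here. Surgery, age and feeding therefore cannot be told apart in comparisons with PH livers, nor age and feeding in comparisons between ages. Titles speak of biological replicates and the design text of duplicates, so the p-values measure the spread between arrays, which may be partly technical.

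The liver takes up glucose after a meal and releases it in fasting. Slc2a2 encodes the glucose transporter GLUT2 of hepatocytes, and Pklr encodes the pyruvate kinase that ends glycolysis in liver and, from another promoter, in red blood cells. Ldha and Ldhb encode the subunits of lactate dehydrogenase, which interconverts pyruvate and lactate. Pck1 and Fbp1 encode enzymes of gluconeogenesis. Mlxipl encodes ChREBP, a transcription factor activated by glucose metabolites, whose known targets include Pklr and enzymes of fatty acid synthesis.

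Values are log2 levels from robust multi-array averaging (RMA), so a difference of 1 is a doubling. Differences carry the standard error (SE) of limma, a linear model with variances moderated across genes, and its p-value adjusted over all 14511 genes. A gene was called, and is said to have risen or fallen, at an adjusted p under 0.05. Replicate arrays correlated over genes with r from 0.952 at 12 weeks to 0.980 after PH. Replicates agreed least at 12 weeks, where 1838 genes were at least 2-fold apart between the arrays, against 432 to 621 in the other groups. All 10 hepatocyte markers were measured, with a summed level between 16.68 and 16.87 on every array, and albumin (Alb) lay between 14.10 and 14.19. Alb lay close to the highest value of any probe set, 14.23, so a constant sum need not mean an equal share of hepatocytes. Of the lower markers, Apoa1 ranged from 12.64 to 13.86 and Hnf4a from 10.47 to 11.82.

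With each gene read from its probe set of highest mean, Ldhb was the 1 of the 7 that was called, in 3 of the 6 comparisons. Its level was 9.09 and 10.68 on the 2-week arrays, 6.56 and 6.86 at 4 weeks, 6.19 and 6.11 at 12 weeks, and 6.09 and 6.56 after PH. Both 2-week arrays lay above the other 6, and they were 1.58 apart from each other. Ldhb rose by 3.74 ± 0.46 (SE, adjusted p = 0.00673) at 2 against 12 weeks, in a comparison where 1.29% of all genes rose. At 2 against 4 weeks it rose by 3.17 ± 0.46 (adjusted p = 0.0300). After PH it was lower than at 2 weeks, with a difference of -3.56 ± 0.46 (adjusted p = 0.00788). The low Ldhb levels lie near the array medians of 5.98 to 6.17, and whether they are above background was not tested, so no fold is given.

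The group means of Ldhb ran from 9.88 ± 1.12 (SD, n = 2) at 2 weeks through 6.71 ± 0.21 at 4 weeks and 6.32 ± 0.33 after PH to 6.15 ± 0.06 at 12 weeks. None of the differences among the last 3 passed, with 0.57 ± 0.46 (adjusted p = 0.999) at 4 against 12 weeks, 0.18 ± 0.46 (adjusted p = 1.00) for PH against 12 weeks and -0.39 ± 0.46 (adjusted p = 0.882) for PH against 4 weeks. The call at 2 against 12 weeks held without any 1 of the 8 arrays, with differences of 2.95 to 4.53. The call against PH was lost without the first PH array (adjusted p = 0.0709). The call against 4 weeks was lost without the first or second PH array (adjusted p = 0.0528 each), the second 2-week array (0.0581), or the first or second 4-week array (0.221 and 0.185).

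Markers of other cell types also differed between the groups. In bulk liver, fewer cells of a type and less RNA per cell cannot be told apart. Of 12 erythroid markers 10 were measured, and at 2 against 12 weeks all 10 were above 0 and 3 rose, beside 1.29% of all genes. Their summed level was 11.45 and 10.66 at 2 weeks, 10.14 and 10.38 at 4 weeks, 9.23 and 9.26 at 12 weeks, and 8.98 and 8.87 after PH. The first 2-week array had the higher erythroid sum and the lower Ldhb. Alas2, the erythroid enzyme of heme synthesis, was at 10.13 and 9.70 at 2 weeks, 8.81 and 9.13 at 4 weeks, 6.72 and 7.64 at 12 weeks, and 6.79 and 6.27 after PH. Of 14 stellate cell and fibroblast markers 13 were measured and 3 rose at 2 against 12 weeks, with summed levels of 12.72 to 12.97 at 2 weeks, 12.24 to 13.41 at 4 weeks, 11.56 to 11.77 at 12 weeks and 11.85 after PH. At 2 against 4 weeks, where Ldhb rose, 9 of 10 erythroid markers were above 0 and 0 were called. Of the 13 stellate cell and fibroblast markers 7 were above 0 there, also with 0 called. The part of these cells in the Ldhb result was not tested.

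**Figure D1:**
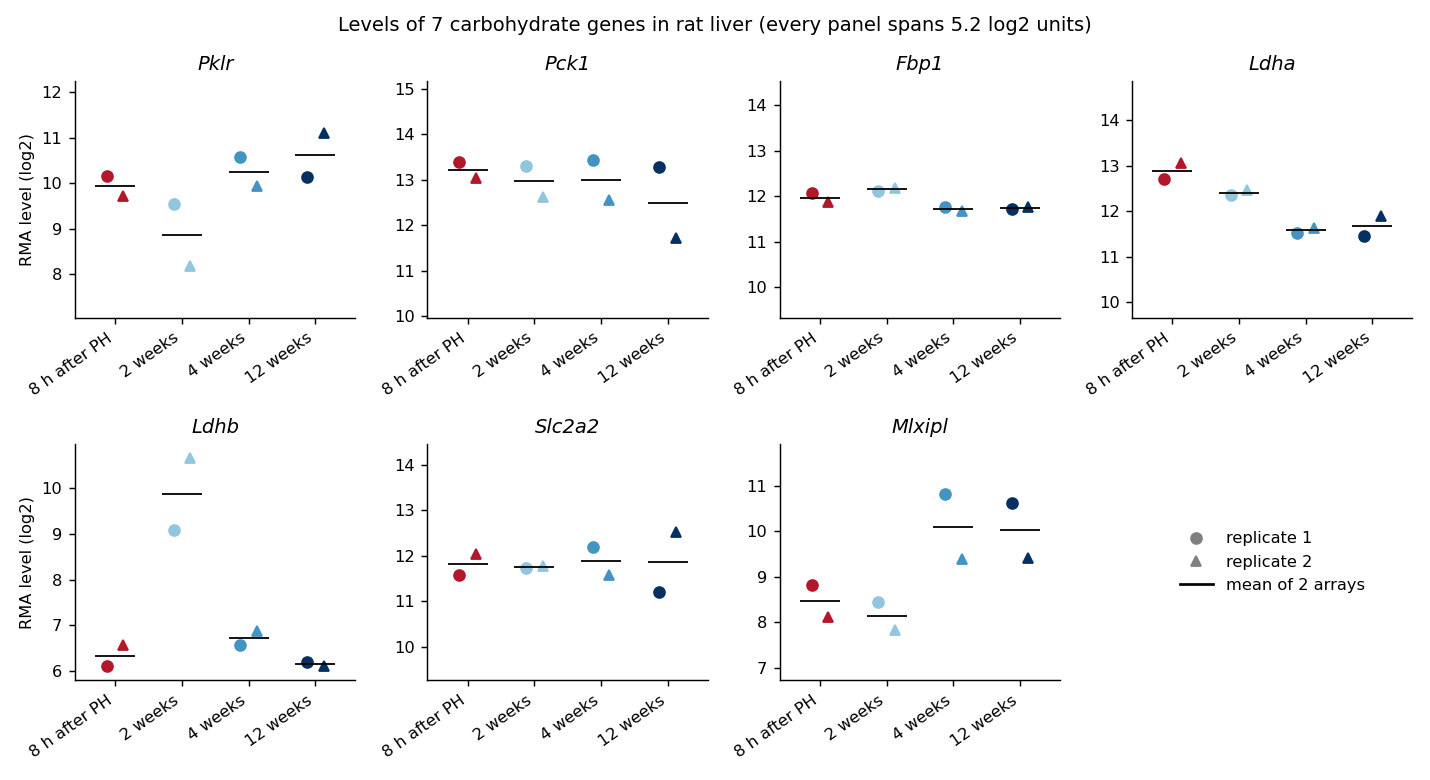
RMA level (log2) of the 7 measured genes on every array, by group, with a bar at the mean of the 2 arrays. Ldhb is high on both 2-week arrays, Mlxipl is lower after PH and at 2 weeks than on the 4 arrays of the older livers, and the groups overlap for Pck1 and Slc2a2.

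Ldha encodes the other subunit. The promoter windows of the pair are shown because both genes serve the same enzyme, while Ldhb alone of them was called on the probe set of highest mean. They are RefSeq sequences of the GRCr8 build, 5′ to 3′, from 250 bases before to 50 after the annotated start. Capitals mark an E-box (CACGTG) and a cAMP response element (TNACGTCA), which were searched on both strands and start in Ldha at positions -87 and -51 from the start site. An E-box stands in 6.42% of 33469 rat windows of this length and the cAMP response element in 3.25%. Neither set of letters is in the Ldhb window.
Ldha, chr1:106507842-106508141, plus strand: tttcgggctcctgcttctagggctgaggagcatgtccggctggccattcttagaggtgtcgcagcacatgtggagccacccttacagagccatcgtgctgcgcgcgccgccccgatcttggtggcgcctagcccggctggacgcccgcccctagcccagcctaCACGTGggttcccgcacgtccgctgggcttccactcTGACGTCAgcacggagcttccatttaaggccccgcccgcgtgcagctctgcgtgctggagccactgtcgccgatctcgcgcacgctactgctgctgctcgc
Ldhb, chr4:177177359-177177658, minus strand: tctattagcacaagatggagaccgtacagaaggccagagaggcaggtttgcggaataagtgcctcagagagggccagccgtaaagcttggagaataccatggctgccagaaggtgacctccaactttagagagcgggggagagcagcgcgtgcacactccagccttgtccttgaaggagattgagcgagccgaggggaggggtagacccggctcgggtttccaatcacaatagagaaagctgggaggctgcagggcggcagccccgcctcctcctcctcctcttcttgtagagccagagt

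On its probe set of highest mean, Ldha was at 12.71 and 13.06 after PH, 12.35 and 12.46 at 2 weeks, 11.52 and 11.63 at 4 weeks, and 11.46 and 11.88 at 12 weeks. The PH arrays were the highest and the 2-week arrays next, and both pairs lay above all 4 arrays of the older livers. The difference was 1.21 ± 0.24 for PH against 12 weeks (adjusted p = 0.215, unadjusted 95% interval 0.66 to 1.77) and 1.31 ± 0.24 for PH against 4 weeks (adjusted p = 0.0942). It was 0.73 ± 0.24 at 2 against 12 weeks (adjusted p = 0.246) and 0.83 ± 0.24 at 2 against 4 weeks (adjusted p = 0.370). None of these passed. Without the first or second 12-week array the adjusted p for PH against 4 weeks was 0.0440. All 12 neutrophil markers were measured. Their summed levels were 11.74 to 11.76 after PH, 9.57 and 12.02 at 2 weeks, 10.72 to 12.08 at 4 weeks and 9.06 to 9.18 at 12 weeks. For PH against 12 weeks 11 of the 12 were above 0, with a median of only 0.28 and 0 called. The sum therefore need not stand for the whole list. The part of neutrophils in the Ldha difference was not tested.

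A second probe set listed for Ldha went the other way after PH. It read 7.21 and 7.88 on the PH arrays, 13.14 and 13.06 at 2 weeks, 11.84 and 12.39 at 4 weeks, and 11.78 and 12.48 at 12 weeks. Both PH arrays lay below all 6 others. In a fit over all 29214 probe sets it fell by 4.58 ± 0.34 (adjusted p = 0.0204) for PH against 12 weeks, and it was the 1 probe set called lower there (0.00342% of all). It fell by 5.55 ± 0.34 (adjusted p = 0.000947) against 2 weeks, where 0.5% of probe sets were lower. Where the 4-week arrays served as the comparison the difference was -4.57 ± 0.34 (adjusted p = 0.00970), with 0.0342% lower. Among the 3 ages it differed by at most 0.99 ± 0.34. In PH against 12 weeks the 2 probe sets disagreed by 5.80, the widest of 528 genes with several probe sets, whose median was 0.10. The direction of Ldha after PH therefore depends on the probe set read, and which one follows the transcript was not tested. This comparison was chosen after the values of both had been seen.

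**Figure D2:**
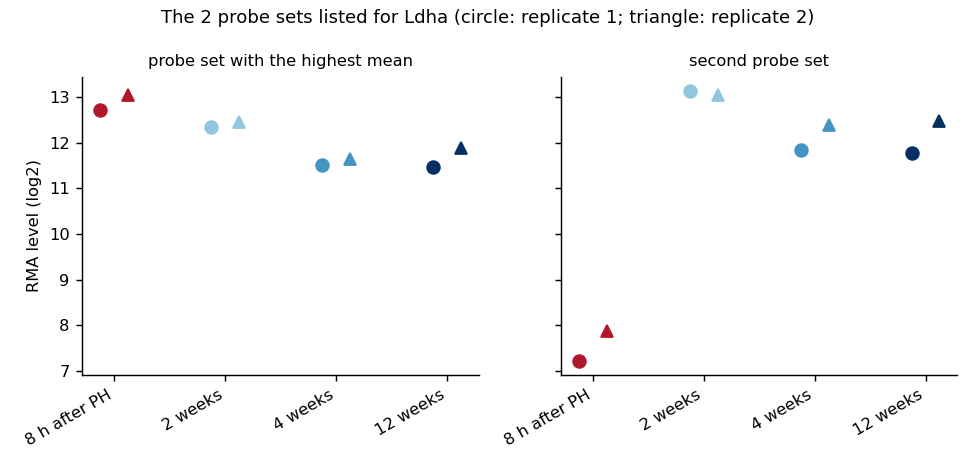
RMA level (log2) on each array, by group, for the 2 probe sets listed for Ldha. On the probe set of highest mean the PH arrays are the highest, at 12.71 and 13.06, and on the second they are the lowest, at 7.21 and 7.88.

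The promoter of Pklr, the liver pyruvate kinase gene, is a textbook example of glucose response and is shown for the paired motif through which ChREBP is known to bind. Capitals mark a pair of E-box half-sites with 5 bases between them (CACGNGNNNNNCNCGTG), starting at position -168, a motif found in 11 of 33469 windows (0.0329%). A TATA box (TATAAA, in 4760 of 33469 windows) starts at -29.
Pklr, chr2:176841014-176841313, plus strand: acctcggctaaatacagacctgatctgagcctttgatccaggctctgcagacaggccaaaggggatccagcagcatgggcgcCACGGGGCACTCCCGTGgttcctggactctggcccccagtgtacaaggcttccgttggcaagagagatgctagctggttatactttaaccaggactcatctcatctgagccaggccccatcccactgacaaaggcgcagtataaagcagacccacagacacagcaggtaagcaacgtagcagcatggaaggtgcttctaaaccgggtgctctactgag

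Pklr was at 9.54 and 8.19 at 2 weeks, 10.57 and 9.95 at 4 weeks, 10.15 and 11.11 at 12 weeks, and 10.17 and 9.72 after PH. Both 2-week arrays lay below the other 6, and the PH arrays overlapped those at 4 and at 12 weeks. The means ran from 10.63 ± 0.68 (SD, n = 2) at 12 weeks through 10.26 ± 0.44 at 4 weeks and 9.95 ± 0.32 after PH to 8.87 ± 0.95 at 2 weeks, and only PH and 2 weeks were neighbours without overlap. At 2 against 12 weeks Pklr differed by -1.76 ± 0.49 (adjusted p = 0.153, interval -2.88 to -0.64). At 2 against 4 weeks it differed by -1.40 ± 0.49 (adjusted p = 0.511) and for PH against 12 weeks by -0.68 ± 0.49 (adjusted p = 1.00). None of these passed. Pklr is also a red-cell gene, and the erythroid sum was highest at 2 weeks. The part of erythroid cells in the Pklr levels was not tested.

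Mlxipl, the sensor itself, was at 8.82 and 8.11 after PH, 8.45 and 7.82 at 2 weeks, 10.82 and 9.38 at 4 weeks, and 10.62 and 9.42 at 12 weeks. The PH and 2-week arrays overlapped each other and lay below all 4 arrays of the older livers. Mlxipl differed by -1.55 ± 0.55 (adjusted p = 0.678, interval -2.82 to -0.28) for PH against 12 weeks and by -1.63 ± 0.55 (adjusted p = 0.342) for PH against 4 weeks. At 2 weeks it differed by -1.88 ± 0.55 (adjusted p = 0.179, interval -3.15 to -0.62) from 12 weeks and by -1.96 ± 0.55 (adjusted p = 0.331) from 4 weeks. None of the 4 passed. The means of 10.10 ± 1.02 (SD, n = 2) at 4 weeks and 10.02 ± 0.85 at 12 weeks lay within their spread, as did 8.47 ± 0.50 after PH and 8.14 ± 0.44 at 2 weeks.

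Slc2a2, the transporter, had group means within 0.13 of each other. It was at 11.57 and 12.04 after PH, 11.73 and 11.78 at 2 weeks, 12.20 and 11.57 at 4 weeks, and 11.20 and 12.51 at 12 weeks. The 12-week arrays were 1.304 apart and enclosed the other 6. The interval of the difference ran from -1.02 to 0.92 for PH against 12 weeks and from -1.07 to 0.86 at 2 against 12 weeks, so changes smaller than about a doubling were not resolved.

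Pck1 encodes cytosolic PEPCK, the regulated entry step of gluconeogenesis, known to be induced by glucagon through cAMP. Its promoter window is shown for the cAMP response element, in capitals, which starts at position -93.
Pck1, chr3:182348322-182348621, plus strand: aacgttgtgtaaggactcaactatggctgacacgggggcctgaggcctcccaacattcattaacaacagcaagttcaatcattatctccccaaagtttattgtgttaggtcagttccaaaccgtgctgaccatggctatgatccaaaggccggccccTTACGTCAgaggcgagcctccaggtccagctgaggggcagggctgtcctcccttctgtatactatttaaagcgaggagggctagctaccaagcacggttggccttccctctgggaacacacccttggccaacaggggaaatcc

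Pck1 was at 13.39 and 13.03 after PH, 13.31 and 12.62 at 2 weeks, 13.43 and 12.56 at 4 weeks, and 13.29 and 11.71 at 12 weeks. The first array of each group lay between 13.29 and 13.43, the second was lower in each, and the groups overlapped in all 6 comparisons. The widest difference was 0.71 ± 0.52 for PH against 12 weeks (adjusted p = 1.00, interval -0.49 to 1.90), and without the second 12-week array it was -0.08.

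Fbp1, the fructose bisphosphatase of gluconeogenesis, had close replicates, at most 0.20 apart. It was at 12.11 and 12.19 at 2 weeks, 12.07 and 11.87 after PH, 11.73 and 11.76 at 12 weeks, and 11.76 and 11.67 at 4 weeks. The 2-week arrays were the highest and the PH arrays next, without overlap, while 4 and 12 weeks overlapped. The differences were small and did not pass, at 0.41 ± 0.21 (adjusted p = 0.550) at 2 against 12 weeks, 0.44 ± 0.21 (adjusted p = 0.731) at 2 against 4 weeks and 0.22 ± 0.21 (adjusted p = 1.00) for PH against 12 weeks.

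**Figure D3:**
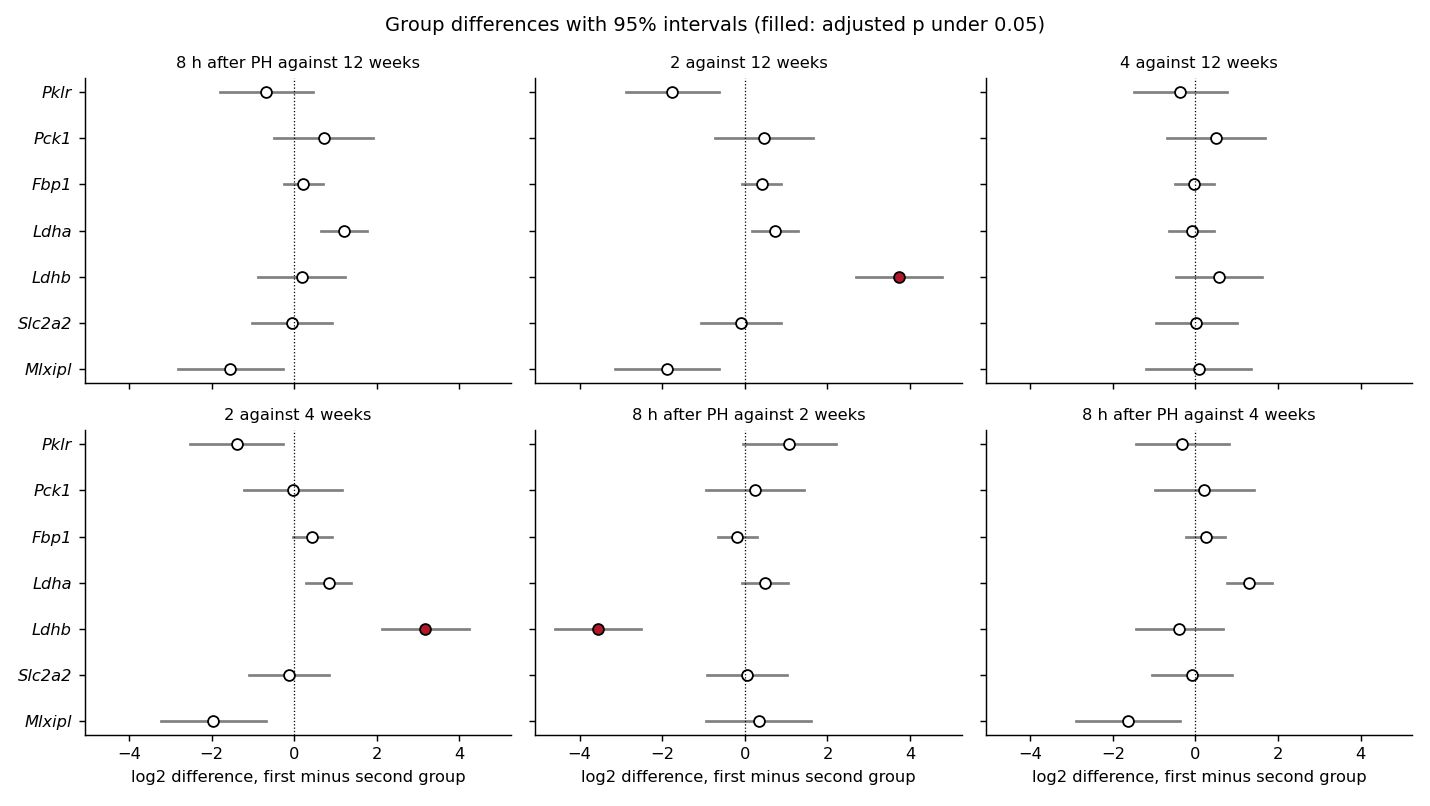
Log2 difference (first minus second group) of the 7 genes in each of the 6 comparisons, with unadjusted 95% intervals; filled points have an adjusted p under 0.05. The filled points are Ldhb at 2 against 12 weeks (3.74), at 2 against 4 weeks (3.17) and for PH against 2 weeks (-3.56).

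Counts over the 7 genes use the probe set of highest mean. At 2 against 12 weeks 1 rose and 0 fell, where 1.29% of all genes rose and 0.937% fell. At 2 against 4 weeks 1 rose and 0 fell (0.152% and 0.303% of all genes), and for PH against 2 weeks 0 rose and 1 fell (0.793% and 1.36%). In limma 0 were called for PH against 12 weeks (0.0207% of genes higher, 0.0138% lower), for PH against 4 weeks (0.117% and 0.193%) and at 4 against 12 weeks (0.0827% and 0.0276%). In these 3 comparisons 2, 2 and 0 of the 7 had an unadjusted p under 0.05, as did 6.01%, 10.2% and 4.47% of all genes. The F-test for any difference among the 4 groups called 1, Ldhb (adjusted p = 0.0145), against 1.79% of all genes, and Ldha had an adjusted p of 0.0715 in it.

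With 2 arrays a group, groups without overlap were common over all genes. Of the 7, 3 did not overlap for PH against 12 weeks (29% of all genes), 5 at 2 against 12 weeks (34.4%) and 1 at 4 against 12 weeks (25.1%). At 2 against 4 weeks 5 did not overlap (40.2%), for PH against 2 weeks 4 (46.8%) and for PH against 4 weeks 4 (44.1%). The median difference of the 7 was 0.18 for PH against 12 weeks, 0.41 at 2 against 12 weeks and 0.03 at 4 against 12 weeks, with medians of all genes of 0.00, -0.01 and 0.00. These 3 comparisons share the 12-week arrays.

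The other genes of the pathway were taken from 7 lists, with 113 of 130 genes measured. Lists for glycolysis (21 of 24 measured), lactate and pyruvate handling (15 of 15), glycogen and galactose (13 of 19) and the pentose phosphate pathway (6 of 8) had 0 calls by limma in every one of the 6 comparisons. Of their 55 measured genes, between 2 (at 4 against 12 weeks) and 12 (for PH against 2 weeks) had an unadjusted p under 0.05. These are 3.64% and 21.8% of them, beside 4.47% and 11.6% of all genes. At 2 against 12 weeks Slc16a1, a lactate and pyruvate carrier, differed by 1.61 ± 0.48 (adjusted p = 0.190), Gys2, the liver glycogen synthase, by 1.82 ± 0.56 (adjusted p = 0.207), and Gbe1, the glycogen branching enzyme, by -1.67 ± 0.41 (adjusted p = 0.0980). Pdk4, a kinase that switches off pyruvate dehydrogenase, differed by 2.06 ± 0.45 (adjusted p = 0.0666) for PH against 2 weeks. For PH against 12 weeks Ppp1r3b, a subunit that targets a phosphatase to glycogen, differed by -2.38 ± 0.59 (adjusted p = 0.371) and Gys2 by 1.48 ± 0.56 (adjusted p = 0.727).

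Among genes of gluconeogenesis (17 of 20 measured) Sds, the serine dehydratase that makes pyruvate from serine, was called. It was at 8.62 and 10.84 at 2 weeks, 8.89 and 8.77 at 4 weeks, 6.37 and 6.16 at 12 weeks, and 6.10 and 7.04 after PH. The 2- and 4-week arrays all lay above those at 12 weeks and after PH. The 12-week levels and the 6.10 after PH lie near the array medians of 5.98 to 6.17. Whether they are above background was not tested. Sds rose by 3.46 ± 0.63 (adjusted p = 0.0304) at 2 against 12 weeks and was lower after PH than at 2 weeks, with a difference of -3.16 ± 0.63 (adjusted p = 0.0447). Neither call was stable. Of the listed genes, 0 were called higher at 2 against 12 weeks without the first or second 4-week array, over all probe sets, or with only the 2 groups fitted. For PH against 2 weeks 0 were called lower without either PH array, the second 2-week array or either 4-week array, over all probe sets, or with median centring. At 4 against 12 weeks it differed by 2.56 ± 0.63 (adjusted p = 0.464). G6pc1, the glucose-6-phosphatase that releases glucose, differed by -1.69 ± 0.54 (adjusted p = 0.314) for PH against 4 weeks.

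Of the sensing partners and regulators (25 of 28 measured) Nr1d1, a repressor of the circadian clock, was called. It was at 10.33 and 10.09 at 4 weeks, 9.98 and 9.04 after PH, 7.26 and 6.92 at 2 weeks, and 6.99 and 7.56 at 12 weeks, so the 4-week and PH arrays lay above the rest. It rose by 2.94 ± 0.35 (adjusted p = 0.0258) at 4 against 12 weeks and fell by 3.12 ± 0.35 (adjusted p = 0.00959) at 2 against 4 weeks. For PH against 2 weeks it rose by 2.42 ± 0.35 (adjusted p = 0.0120). For PH against 12 weeks it differed by 2.24 ± 0.35 (adjusted p = 0.116), which did not pass. At 4 against 12 weeks it was the 1 listed gene called, and 0 were called without the first or second array of the 2-, 4- or 12-week group. No label states the hour of sampling. Gcgr, the glucagon receptor gene, differed by -1.13 ± 0.25 (adjusted p = 0.0670) at 2 against 12 weeks.

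The 16 lipogenic targets of Mlxipl and Srebf1 were all measured, and those called were lower at 2 weeks. This list, like the others, was chosen with earlier results of these data known, so its counts are descriptions. At 2 against 12 weeks 6 fell and 0 rose, beside 0.937% and 1.29% of all genes. There 15 were below 0, and the median was -2.03 against -0.01 for all genes. At 2 against 4 weeks 4 fell, beside 0.303% of all genes, all 16 were below 0, and the median was -2.06. At 2 against 12 weeks all 10 erythroid and 12 of 13 stellate cell and fibroblast markers were above 0, with 3 of each called and the summed levels given for Ldhb, and their part in the lipogenic differences was not tested. Thrsp, a nuclear protein of lipogenesis, was at 7.20 and 5.97 at 2 weeks, 13.03 and 13.18 at 4 weeks, 12.42 and 13.45 at 12 weeks, and 12.76 and 12.89 after PH. Only the 2-week arrays were low, and Thrsp fell by 6.35 ± 0.44 (adjusted p = 0.000323) at 2 against 12 weeks. Scd, a fatty acid desaturase, fell by 4.69 ± 0.51 (adjusted p = 0.00390) and Acss2, an acetyl-CoA synthetase, by 3.19 ± 0.54 (adjusted p = 0.0233). Scd was at 6.55 and 5.44 at 2 weeks. These levels and the 5.97 of Thrsp lie near or below the array medians of 5.98 to 6.17. Whether they are above background was not tested.

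After PH, Thrsp lay above both 2-week arrays, while Mlxipl overlapped them. Against 2 weeks, Thrsp rose after PH by 6.24 ± 0.44 (adjusted p = 0.000417) and Scd by 4.06 ± 0.51 (adjusted p = 0.00719), while Mlxipl differed by 0.33 ± 0.55 (adjusted p = 0.922). Of the 16 targets 12 were above 0 and 4 below, with a median of 1.08. Whether these differences differ from each other was not tested. Against 12 weeks the PH livers had 15 of 16 targets below 0 with a median of -0.87, and 0 were called by limma, with 7 at an unadjusted p under 0.05 (6.01% of all genes). Acacb, an acetyl-CoA carboxylase, was at 6.94 and 6.72 after PH and 9.25 and 8.59 at 12 weeks, a difference of -2.09 ± 0.37 (adjusted p = 0.165). Against 4 weeks 15 of 16 were again below 0, with a median of -1.10, 0 called by limma and 9 at an unadjusted p under 0.05 (10.2% of all genes).

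Over all 7 lists, with 113 genes measured, counts of calls moved with single arrays. Of all genes on the 8 arrays, 1.29% rose and 0.937% fell at 2 against 12 weeks. The shares were 0.152% and 0.303% at 2 against 4 weeks, 0.793% and 1.36% for PH against 2 weeks, and 0.117% and 0.193% for PH against 4 weeks. At 2 against 12 weeks 7 listed genes were called, and 4 without the first or second 4-week array. At 2 against 4 weeks 5 were called, and 2 without the second 2-week array or either 4-week array. For PH against 2 weeks 4 were called, and 1 without the first PH array. For PH against 4 weeks 0 were called, and 4 without either 12-week array.

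**Figure D4:**
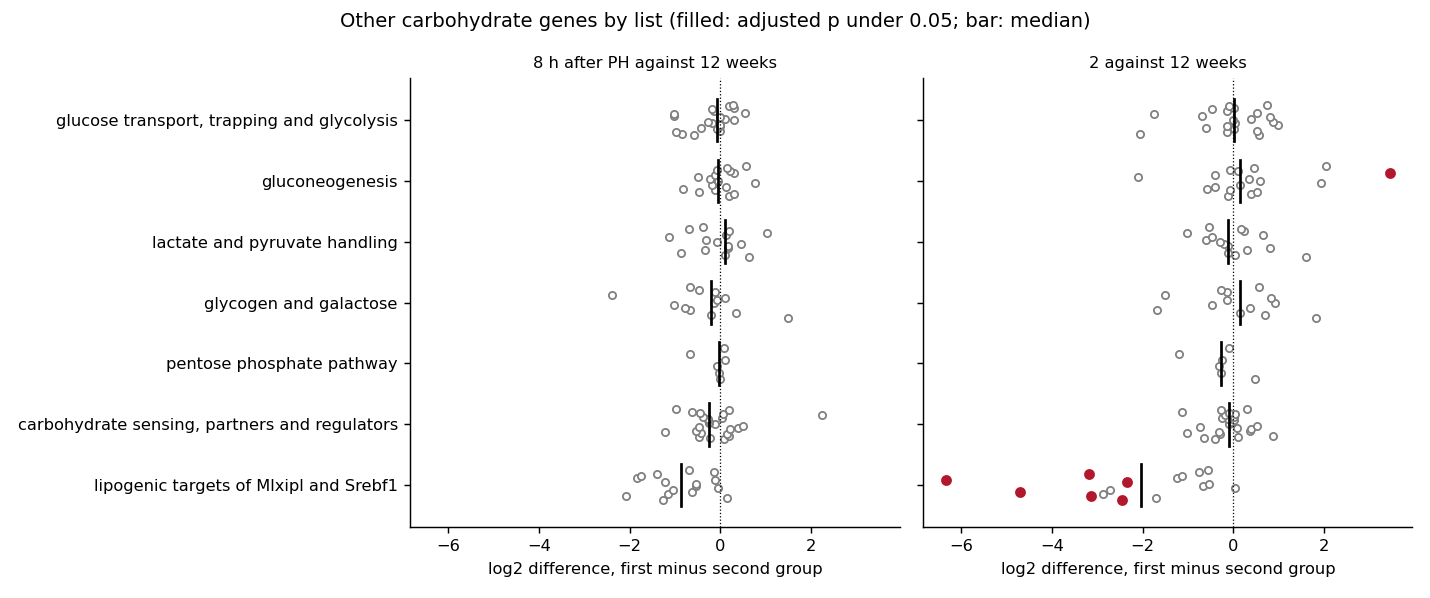
Log2 difference of each measured gene of the 7 lists for PH against 12 weeks and for 2 against 12 weeks, by list; filled points have an adjusted p under 0.05. At 2 against 12 weeks the 6 filled points below 0 are lipogenic targets and the 1 above 0 is Sds, and for PH against 12 weeks 0 are filled.

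**Figure D5:**
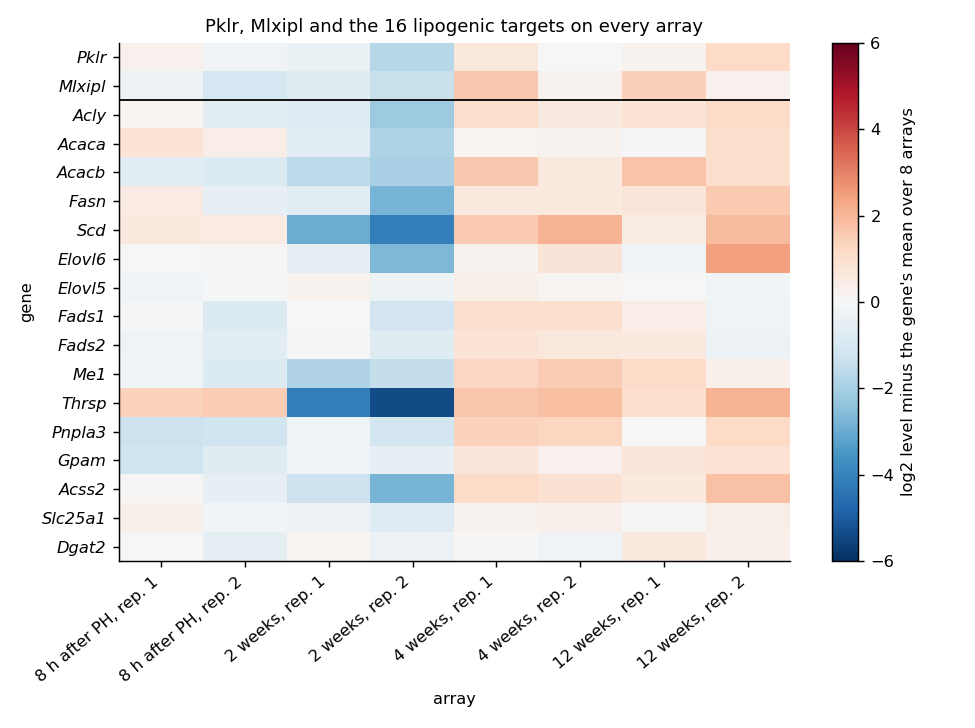
Log2 level minus the gene's mean over the 8 arrays for Pklr and Mlxipl (above the line) and the 16 lipogenic targets (below it), with 1 column per array; red is above and blue below the gene's own mean. Both 2-week columns are blue for most genes and darkest for Thrsp, which is above its mean on both PH arrays while Mlxipl is below.

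The genes most alike in course were taken by Pearson's r over the 8 arrays among 1626 genes whose group means spanned at least 1. The arrays share groups, and the values are descriptions. Pklr was closest to Lss, the lanosterol synthase of cholesterol synthesis (r = 0.993), Cyp39a1, an oxysterol hydroxylase (0.972), and Fasn, the fatty acid synthase (0.971). Ldhb was closest to Adcy10, the soluble adenylyl cyclase (0.984), Cpt1b, a carnitine palmitoyltransferase known from muscle (0.979), and Fam89a (0.969). Mlxipl was closest to MGC93861 (0.959), Akap5 (0.951) and Aldh1l1, a folate enzyme (0.944). Ldha was closest to Ube2g2 (0.962), Tdg (0.961) and Agt, the angiotensinogen gene (0.948), and Fbp1 to Cdc25a (0.929), Dusp6 (0.926) and Nsf (0.922). Pck1 had values of 0.820 for Enc1, 0.786 for Bco1 and 0.786 for Spetex2el3. Slc2a2 had the lowest, with 0.753 for Gcnt2, 0.741 for Khk, the fructokinase gene, and 0.734 for Serpina3m.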

How the data were processed

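The authors deposited log2 values of 29214 probe sets on 8 arrays, and the submitters' processing notes name RMA and Affymetrix Expression Console. Versions, filters and scan batches were not given in the sources used here. RMA compresses differences near background, and precision is limited by how few arrays there are. The platform annotation gave 15316 probe sets 1 symbol, 317 several and 13581 none. The probe set of highest mean stood for each of 14511 genes.

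Comparisons were the 6 pairs of groups, as contrasts in 1 limma 3.58.1 model (R 4.3.3, lmFit and eBayes) of 4 groups, with 4 residual and 4.27 prior degrees of freedom and Benjamini-Hochberg adjustment over all genes. The script was tested on simulated data. The members and lists were chosen with earlier results of these data known. From each list the text drew on up to 3 called genes in each direction, or on 2 with the widest differences where none was called; Sds at 4 against 12 weeks, Acacb's array values and Ldha's second probe set were chosen after values were seen. Alternatives covered normalization, tested genes, probe sets, prior, groups fitted, threshold, replicate number and each array left out. Promoter windows came from RefSeq, where all 8 symbols matched.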

Additional observations from a re-analysis of the deposited data

How the results depend on the processing

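Of 42 differences of the 7 genes, 21 kept their sign in all 17 alternatives. Of the 3 calls, 1 held in all 17 (Ldhb at 2 against 12 weeks, adjusted p 0.000978 to 0.0272). The Ldhb call for PH against 2 weeks held in 16 and that at 2 against 4 weeks in 9. Where a count changed, the cause was not tested. At a threshold of 0.01, members called were 0 at 2 against 4 weeks and 0 in the F-test, and pathway genes were 3 at 2 against 12 weeks, 0 at 4 against 12 weeks and 2 for PH against 2 weeks. Over all probe sets, members were 0 at 2 against 4 weeks (Ldhb adjusted p = 0.0818), and pathway genes 4 at 2 against 12 weeks and 0 at 4 against 12 weeks. With only the 2 groups compared, members were 0 at 2 against 4 weeks (Ldhb adjusted p = 0.0891), and pathway genes 4 at 2 against 12 weeks, 0 at 4 against 12 weeks and 4 for PH against 4 weeks. Pathway genes called for PH against 4 weeks were 1 when genes below the median level were dropped and 1 with scaling to the 75th percentile, and median centring left 0 at 4 against 12 weeks. With the mean over probe sets, members were 2 for PH against 2 weeks and 2 in the F-test, and Ldha reversed to -1.69 for PH against 12 weeks, -2.54 against 2 weeks and -1.63 against 4 weeks. On its second probe set, an alternative chosen after seeing the data, Ldha reversed to -4.58, -5.55 and -4.57. Median centring reversed Pck1 at 2 against 4 weeks (0.0368) and Slc2a2 at 4 against 12 weeks (-0.0222).

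Same-numbered arrays deviated together with r of 0.0229 to 0.568, lowest for 2 and 12 weeks, so the numbers were not taken as pairs. With the replicate number as a block, members called were 2 at 2 against 12 weeks (Mlxipl added, adjusted p = 0.00589), 2 at 2 against 4 weeks (Mlxipl, 0.0103), 2 for PH against 4 weeks (Ldha, 0.0316, and Mlxipl, 0.0292) and 3 in the F-test. Pathway genes under the block were 14 at 2 against 12 weeks, 8 at 2 against 4 weeks, 3 for PH against 12 weeks and 4 for PH against 4 weeks.

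Leaving out each array in turn gave 0 to 1 members at 2 against 4 weeks, for PH against 2 weeks and for PH against 4 weeks, and 1 to 2 in the F-test. It gave 4 to 9 pathway genes at 2 against 12 weeks, 2 to 7 at 2 against 4 weeks, 0 to 1 at 4 against 12 weeks, 1 to 5 for PH against 2 weeks and 0 to 4 for PH against 4 weeks. Differences that changed sign ranged, for Pck1, from -0.0787 to 1.498 for PH against 12 weeks, -0.32 to 1.25 at 2 against 12 weeks, -0.29 to 1.28 at 4 against 12 weeks, -0.47 to 0.40 at 2 against 4 weeks, -0.10 to 0.59 for PH against 2 weeks and -0.22 to 0.65 for PH against 4 weeks. For Slc2a2 they ranged from -0.70 to 0.60, -0.76 to 0.55, -0.63 to 0.68, -0.44 to 0.18, -0.18 to 0.29 and -0.39 to 0.24 in the same order. At 4 against 12 weeks they ranged from -0.0725 to 0.0129 for Fbp1, -0.31 to 0.12 for Ldha, -0.64 to 0.80 for Mlxipl and -0.85 to 0.12 for Pklr. Ldhb ranged from -0.0554 to 0.41 for PH against 12 weeks and Mlxipl from -0.0229 to 0.68 for PH against 2 weeks. With 2 arrays a group, an array left alone is assumed to vary like the other groups.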

Other observations

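Mlxipl and Pck1 were each higher on replicate 1 than on replicate 2 in all 4 groups, with mean gaps between the arrays of a group of 0.99 and 0.87. Pfkfb1, the liver enzyme that makes and removes the glycolytic activator fructose 2,6-bisphosphate, differed by 1.67 ± 0.39 (SE, limma, adjusted p = 0.413) at 4 against 12 weeks and by -1.94 ± 0.39 (adjusted p = 0.122) for PH against 4 weeks. Ppargc1a, a coactivator of gluconeogenic genes, differed by 1.505 ± 0.47 (adjusted p = 0.708) at 4 against 12 weeks, and Lpin1, a phosphatidate phosphatase and coregulator, by -2.41 ± 0.75 (adjusted p = 0.310) for PH against 4 weeks. None of these passed. Ugp2, which makes UDP-glucose for glycogen, differed by -1.16 ± 0.27 (adjusted p = 0.0799) and Galt, of galactose use, by -1.25 ± 0.33 (adjusted p = 0.126) for PH against 2 weeks, also without passing.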
